A study of Mus musculus with 18 samples.

Results

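The constitutive proteasome genes are those that encode the standard subunits of the proteasome, *Psma1* to *Psma7*, *Psmb1* to *Psmb7*, *Psmc1* to *Psmc6* and the numbered *Psmd* genes. The rule reads the symbol, asks for a mean of at least 1 FPKM and uses no difference between groups. The pattern matched 34 of 23352 gene symbols, and all 34 were kept, because none had a failed estimate, none had a mean under 1 FPKM and each had a single entry per library. The 34 genes lie on 15 chromosomes, 14 encode the core particle and 20 carry the names of the regulatory particle. FPKM, the number of fragments scaled by transcript length and by the mapped reads of the library, allows levels to be compared between genes.

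The libraries are bulk poly(A) RNA of whole liver from 18 male mice of the C57BL/6J background, 20 weeks old and all on high fat diet (HFD). The 9 wild-type (WT) mice carried intact *Gpr180*, and the 9 *Gpr180*KO mice were homozygous for a CRISPR/Cas9 deletion of exon 6 that shifts the reading frame. Both genotypes descend from matings of heterozygous mice after backcrossing. The deletion is present in every cell of the body, so a difference in the liver is not assigned to a liver cell type, and in bulk tissue fewer cells of a type and less RNA per cell cannot be told apart. Sample titles come in 2 formats, such as W317HFD (title set 1, 4 mice per genotype) and WThfd131 (title set 2, 5 mice per genotype), which were treated as possible batches.

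The proteasome degrades proteins that have been marked with chains of ubiquitin. The core particle is a barrel of stacked rings: the outer rings, built from Psma proteins, gate the entrance, and the inner rings, built from Psmb proteins, hold the protease sites facing the lumen. The regulatory particle caps the barrel. Its base holds a ring of Psmc ATPases that unfold the substrate and Psmd subunits that bind ubiquitin or ubiquitin-like domains, and its lid removes the ubiquitin chain. *Psmd5*, *Psmd9* and *Psmd10* encode chaperones that help to assemble the base and leave before the particle is complete. In liver the proteasome clears damaged and short-lived proteins, including enzymes of lipid metabolism, and cells deprived of proteasome activity raise the transcription of most subunit genes together.

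*Gpr180* itself was checked first. It had 6.79 ± 1.99 FPKM in WT (SD, n = 9, 4.46 to 9.24) and 1.60 ± 0.371 FPKM in *Gpr180*KO livers (SD, n = 9, 0.876 to 1.99), so the groups did not overlap (two-sided exact permutation test over 48620 splits, p = 4.11e-05, the smallest this design allows). Summed over all genes, the libraries reached 554796 to 718746 FPKM. The highest sum belonged to the *Gpr180*KO library KOhfd51, which stood apart from the other 17. In it genes with transcripts of up to 1000 nt had a median of 0.68 above their mean over all libraries on the log2 scale, and genes over 4500 nt a median of -0.91. Hepatocyte markers were abundant in every library, with a sum over 7 genes of 16970 to 22070 FPKM in WT and 19900 to 32550 in *Gpr180*KO livers, the highest again in KOhfd51. Of the 8 stellate cell markers 5 were lower in *Gpr180*KO (limma, Benjamini-Hochberg adjusted p under 0.05), against 4.28% of all genes tested, with a sum of 142.9 to 286.6 FPKM in WT and 79.6 to 144.8 in *Gpr180*KO. Against the same share, of 7 macrophage markers 1, *Cd68*, was lower (sums of 189.5 to 489.0 FPKM in WT and 227.6 to 347.4 in *Gpr180*KO), and 0 of 6 endothelial markers passed the test or had an unadjusted p under 0.05 in limma (78.9 to 124.2 and 71.9 to 112.3). The 8 lymphocyte markers summed to at most 10.4 FPKM, and of the 5 adipocyte markers *Plin1* was listed at 0 in all 18 libraries and *Cidea* alone had a mean above 1 FPKM, while *Retn* reached 1.26 FPKM in KOhfd51. The part of these shifts in the values of the proteasome genes was not tested.

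Every constitutive proteasome gene was well expressed in liver. The mean over 18 libraries was highest for *Psmb7* and lowest for *Psmd10*. The core genes had WT means between 50.2 FPKM for *Psma5*, a subunit of the outer ring, and 143.3 FPKM for *Psmb7*, the subunit with trypsin-like activity. The 17 genes of the assembled regulatory particle were at lower levels, between 40.3 FPKM for the lid gene *Psmd13* and 95.9 FPKM for the lid gene *Psmd8*. The base chaperones were the least abundant, at 19.3 FPKM for *Psmd5*, 13.0 for *Psmd9* and 7.78 for *Psmd10*. In each library the median FPKM of the core genes was divided by that of the 17 regulatory subunits. This ratio was 1.65 to 1.94 in WT libraries (mean 1.82 ± 0.0885, SD, n = 9) and 1.66 to 1.92 in *Gpr180*KO libraries other than KOhfd51 (mean 1.80 ± 0.0719, SD, n = 8), and it was 2.56 in KOhfd51. The deposited confidence bounds of a single value reached a median of 6.21% of the FPKM to either side over the 34 genes, and at most 20.6%, in *Psmd10*. They cover the uncertainty of the estimate within 1 library, not the spread between mice.

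**Figure D1:**
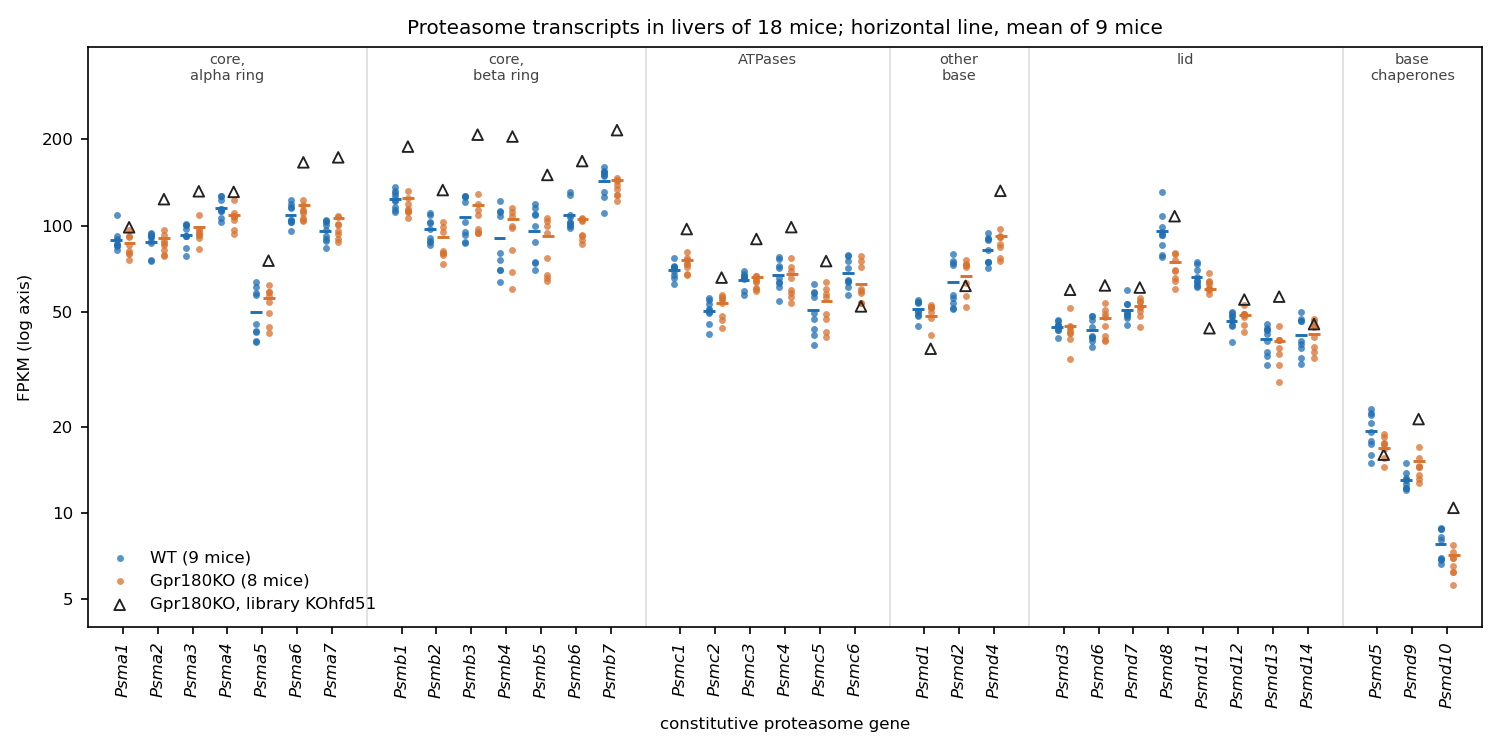
FPKM (log axis) of the 34 constitutive proteasome genes in each liver library, ordered by their place in the complex. Blue points are the 9 WT mice, orange points 8 *Gpr180*KO mice, triangles the *Gpr180*KO library KOhfd51 and horizontal lines the means of 9 mice. The 2 genotypes overlap for each gene, and the triangle is the highest of the 18 values for 26 of the 34 genes.

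None of the 34 genes passed the test between genotypes. Of the 10835 genes tested, 4.73% passed (limma, Benjamini-Hochberg adjusted p under 0.05), with 4.28% lower and 0.452% higher in *Gpr180*KO. At an unadjusted p under 0.05, 1 proteasome gene was lower, *Psmd8*, and 1 was higher, *Psmd9*, against 19.6% of all genes lower and 2.54% higher. For none of the 34 genes did the ranges of the 2 genotypes fail to overlap, which occurred for 0.231% of all genes. Differences are given as the mean log2(FPKM + 0.1) of *Gpr180*KO minus that of WT. Their median over the 34 genes was 0.02 (range -0.36 to 0.21), with 15 genes below 0 and 19 above, whereas the median over all genes tested was -0.13, with 76.9% of genes below 0. The proteasome genes stood 0.15 above that all-gene median, and 29 of 34 lay above it. Without KOhfd51 they stood 0.07 above it, with 25 of 34 above, and in title set 1 alone 0.00, with 17 of 34 above.

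The core and the regulatory particle had the same median. It was 0.02 for the 14 core genes (6 below 0, 8 above, range -0.10 to 0.18) and 0.02 for the 20 regulatory genes (9 below, 11 above). By place in the complex the medians were 0.08 for the outer ring, -0.01 for the inner ring, 0.06 for the ATPases, 0.08 for the other base subunits, 0.01 for the lid and -0.14 for the base chaperones. These are descriptions, without a test of one particle against the other. The 95% intervals show how large a difference these libraries leave possible. For 33 of the 34 genes the whole interval lay within a 1.5-fold change in either direction, against 70.7% of all genes tested, and *Psmd8* was the exception. The genes compared were not matched for expression level. The median width of the interval was 0.39 on the log2 scale, and the widest, 0.80, belonged to *Psmb4* of the inner ring. Under median-of-ratios scaling, described below, 33 of 34 also lay within 1.5-fold, against 77.0% of all genes, with *Psmb4* as the exception. On that scale without KOhfd51 all 34 did, against 82.4%.

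**Figure D2:**
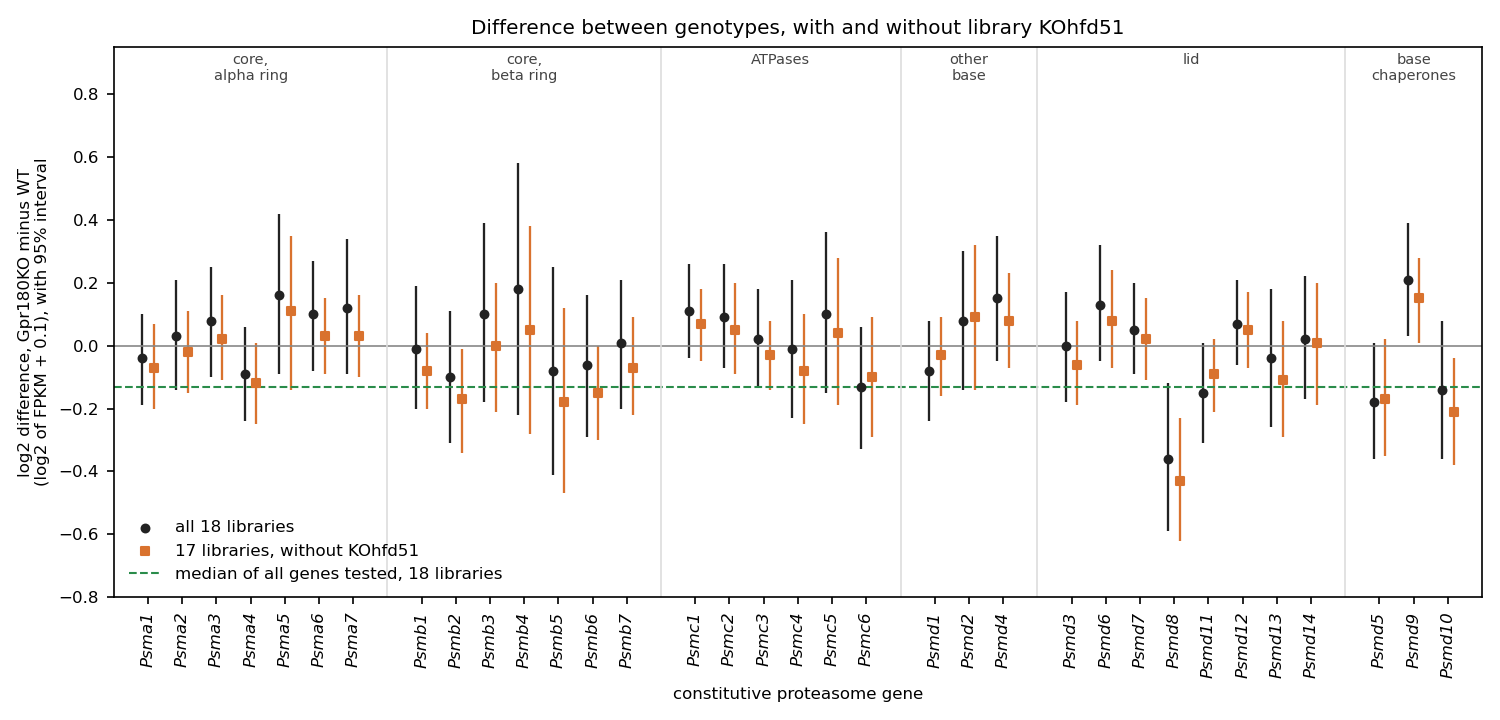
Difference between genotypes in log2(FPKM + 0.1) for each constitutive proteasome gene, with its 95% interval from limma, in all 18 libraries (black circles) and in the 17 libraries other than KOhfd51 (orange squares). The dashed line is the median over all genes tested, -0.13. *Psmd8* has the lowest difference in both, -0.36 and -0.43, and *Psmd9* the highest, 0.21 and 0.15.

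The scale of the comparison moved these medians. FPKM does not correct for a few abundant genes taking a larger share of a library, and median-of-ratios scaling, which sets the typical gene equal in every library, raised the median over all genes to -0.01 and that of the proteasome genes to 0.15. On that scale 29 of the 34 genes were above 0, among them all 14 core genes, while 51.1% of all genes were below 0, and 12 were higher at an unadjusted p under 0.05, against 8.02% of all genes. None passed after adjustment (lowest adjusted p = 0.0745, *Psmd9*, limma), where 2.61% of all genes did and 1.03% were called higher. Without KOhfd51 the same scaling gave a median of 0.08 for the proteasome genes and 0.00 for all genes, with 9 proteasome genes higher at an unadjusted p under 0.05 against 9.17%. The scaling divides each library by a single factor and so shifts all genes almost equally, which nearly fixes the distances between genes in advance. Against the all-gene median, the proteasome genes stood 0.15 higher with all libraries and 0.07 higher without KOhfd51, by construction the same on both scales. As deposited they stood 0.00 from it in title set 1 alone and 0.27 above it in title set 2 alone, the set that holds KOhfd51.

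Library KOhfd51 carried much of the spread among the proteasome genes. It had the highest of the 18 values for 26 of 34 genes, 13 of the core and 13 of the regulatory particle, against 18.8% of all genes. The proteasome genes stood at a median of 0.47 above their means there, the core genes at 0.58 and the regulatory genes at 0.39, while in the other 17 libraries the median lay between -0.18 and 0.10. Proteasome transcripts are short: the median length was 1851 nt (859 to 4397), 1220 nt for the core and 1986 nt for the regulatory genes, against 3211 nt for all genes. Of the 34 genes, 3 have transcripts of up to 1000 nt, 19 of 1000 to 2000 nt, 8 of 2000 to 3000 nt, 4 of 3000 to 4500 nt and 0 longer ones. In KOhfd51 the median of all genes fell in steps across the same bins, from 0.68 and 0.35 through -0.02 and -0.35 to -0.91. *Psmd11* (2975 nt), *Psmd1* (3112 nt), *Psmc6* (2234 nt), *Psmd5* (4397 nt) and *Psmd2* (3001 nt) were the proteasome genes below their means in this library, by -0.52, -0.41, -0.31, -0.17 and -0.06. The part of transcript length in the level of each gene was not tested.

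**Figure D3:**
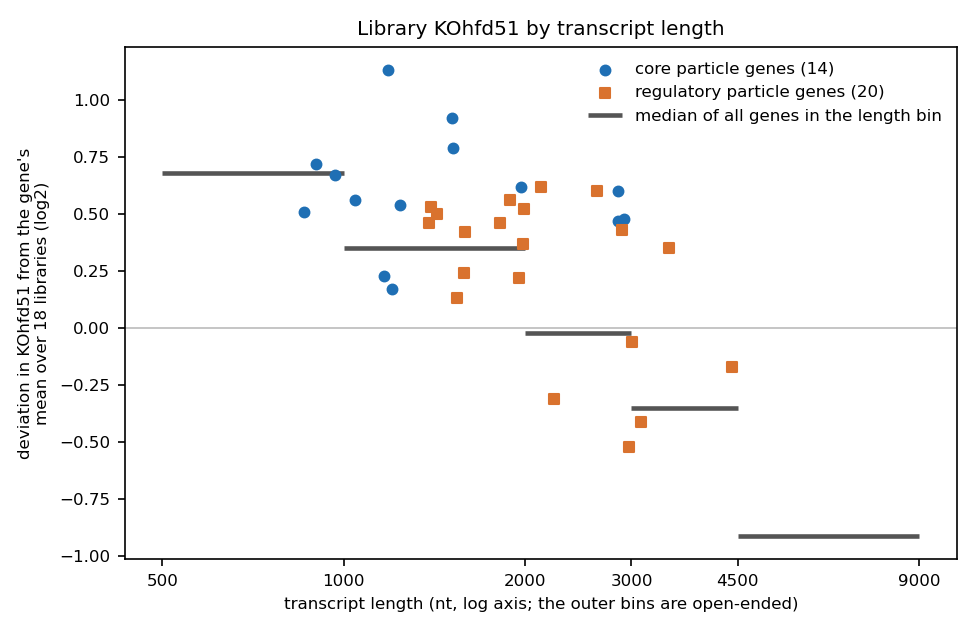
Deviation of library KOhfd51 from the mean of each gene over 18 libraries (log2) against transcript length (nt, log axis) for the 14 core genes (circles) and 20 regulatory genes (squares). Grey bars are medians over all genes of the length bin, 0.68 in the shortest and -0.91 in the longest, and most proteasome genes lie among the shorter transcripts with positive deviations.

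Without KOhfd51 the median difference of the proteasome genes was -0.03, with 19 genes below 0 and 15 above, and that of all genes was -0.10. The core genes then had a median of -0.05 (9 below 0, 5 above) and the regulatory genes -0.01 (10 below, 10 above). Class medians were 0.02 for the outer ring, -0.08 for the inner ring (6 of 7 below 0) and 0.01 for the ATPases. They were 0.08 for the other base subunits, -0.03 for the lid and -0.17 for the base chaperones. At an unadjusted p under 0.05 in limma 4 proteasome genes were lower and 1 higher, against 2324 and 349 of 10867 genes. *Psmd8* alone passed the test, as lower in *Gpr180*KO, against 6.46% of all genes called lower. The spread between mice of one genotype was smaller for these genes than over all genes, which were not matched to them for expression level. The standard deviation of log2 values within a genotype had a median of 0.14 over the 34 genes without KOhfd51 and 0.19 with it, against 0.22 and 0.28 over all genes. Without KOhfd51 it was lowest for the ATPase gene *Psmc3*, 0.08, and highest for *Psmb4*, 0.35.

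The 7 genes of the outer ring form the gate of the core particle. *Psma5* had the lowest unadjusted p among them. Its FPKM had a lowest value of 39.4, a median of 45.5 and a highest of 63.9 in WT, and 42.3, 56.9 and 75.7 in *Gpr180*KO, the highest in KOhfd51. The genotypes overlapped over most of their range, and the difference was 0.16 ± 0.12 (log2, SE, 95% interval -0.09 to 0.42, limma, adjusted p = 0.44), or 0.11 without KOhfd51. The WT values split by title set: the 4 mice of set 1 were between 57.6 and 63.9 FPKM and the 5 of set 2 between 39.4 and 45.5. The other outer ring genes had differences of -0.09 for *Psma4*, -0.04 for *Psma1*, 0.03 for *Psma2*, 0.08 for *Psma3*, 0.10 for *Psma6* and 0.12 for *Psma7*, each with an interval that spans 0. *Psma1* was the core gene least raised in KOhfd51, with 98.9 FPKM there against a highest value of 109.0 in the WT library WThfd133.

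The inner ring holds the catalytic subunits. *Psmb5*, which has the chymotrypsin-like activity, had a lowest value of 70.5, a median of 99.8 and a highest of 119.6 FPKM in WT, and 64.4, 94.5 and 150.5 in *Gpr180*KO. The difference was -0.08 ± 0.16 (log2, SE, 95% interval -0.41 to 0.25, limma, adjusted p = 0.776), and -0.18 without KOhfd51 (adjusted p = 0.458). Here too the title sets stood apart, with 109.0 to 119.6 FPKM in WT mice of set 1 and 70.5 to 99.8 in those of set 2. Pseudogenes named after *Psmb5*, *Psmb6* and *Psmb7* are annotated in GENCODE. How reads that match several places were counted is not given in the sources used here, so the levels of these 3 genes are uncertain to that extent. Pseudogenes annotated under other names were not looked for, so the same may hold for other proteasome genes.

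*Psmb6*, with the caspase-like activity, had a lowest value of 98.2, a median of 102.9 and a highest of 130.9 FPKM in WT and 86.5, 103.9 and 168.2 in *Gpr180*KO. Apart from the 168.2 FPKM of KOhfd51, the *Gpr180*KO values ran from 86.5 to 106.7. Of these, 86.5, 89.3, 92.5 and 93.3 FPKM lay below the lowest WT value, and the others lay within the range of WT. The difference was -0.06 ± 0.11 (log2, SE, limma, adjusted p = 0.735), and -0.15 without KOhfd51 (adjusted p = 0.197). *Psmb7* had a lowest value of 110.8, a median of 150.6 and a highest of 160.9 FPKM in WT and 122.4, 139.1 and 215.6 in *Gpr180*KO, where 8 of 9 values lay below the WT median. Its difference was 0.01 ± 0.10 (log2, SE, limma, adjusted p = 0.98), and -0.07 without KOhfd51.

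The other inner ring subunits carry no protease site. *Psmb2* had the lowest unadjusted p of the ring, with a lowest value of 85.8, a median of 97.8 and a highest of 111.1 FPKM in WT and 73.7, 81.7 and 133.3 in *Gpr180*KO. The ranges overlapped, and 6 of 9 *Gpr180*KO values were below the WT median. The difference was -0.10 ± 0.10 (log2, SE, limma, adjusted p = 0.559), and -0.17 without KOhfd51 (adjusted p = 0.187). *Psmb4* and *Psmb3* had the largest deviations in KOhfd51, 1.13 and 0.92 above their means, and differences of 0.18 and 0.10 that came to 0.05 and 0.00 without that library. *Psmb1* had a difference of -0.01, and -0.08 without KOhfd51.

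The ATPases thread the substrate into the core. Among the 6 genes *Psmc1* had the lowest unadjusted p. It had a lowest value of 62.8, a median of 71.5 and a highest of 77.5 FPKM in WT and 67.2, 73.6 and 97.5 in *Gpr180*KO, where 7 of 9 values were above the WT median. The difference was 0.11 ± 0.07 (log2, SE, 95% interval -0.04 to 0.26, limma, adjusted p = 0.364), and 0.07 without KOhfd51. The other ATPase genes were at -0.13 for *Psmc6*, -0.01 for *Psmc4*, 0.02 for *Psmc3*, 0.09 for *Psmc2* and 0.10 for *Psmc5*. *Psmc6* differed from the others in KOhfd51, which held its lowest value, 52.4 FPKM. Of the other base subunits *Psmd4*, a receptor for ubiquitin chains, had a lowest value of 71.6, a median of 82.3 and a highest of 94.8 FPKM in WT and 75.4, 91.4 and 132.5 in *Gpr180*KO. Its difference was 0.15 ± 0.10 (log2, SE, limma, adjusted p = 0.375), and 0.08 without KOhfd51. The scaffold genes of the base, *Psmd1* and *Psmd2*, had differences of -0.08 and 0.08.

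The lid holds *Psmd14*, the protease that cuts ubiquitin chains from the substrate, and *Psmd8*, a subunit that joins late in the assembly of the lid. *Psmd14* had 41.6 ± 6.19 FPKM in WT and 42.1 ± 4.78 in *Gpr180*KO (SD, n = 9 each), a difference of 0.02. *Psmd8*, at chr7:29174187-29180673 in mm10, had the lowest p of all 34 genes. Its FPKM had a lowest value of 78.2, a median of 93.2 and a highest of 131.5 in WT, and 60.2, 70.4 and 108.1 in *Gpr180*KO. The highest *Gpr180*KO value was again that of KOhfd51. The other 8 *Gpr180*KO livers were at 60.2 to 80.5 FPKM, so that they overlapped only with the 2 lowest WT livers, at 78.2 and 78.9. The difference was -0.36 ± 0.11 (log2, SE, 95% interval -0.59 to -0.12), with 8 of 9 *Gpr180*KO values below the WT median, and it missed the threshold (limma, adjusted p = 0.0671).

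The call of *Psmd8* depended on the fit. Without KOhfd51 the difference was -0.43 (limma, adjusted p = 0.0174). With the title set as a block it was called in all 18 libraries (adjusted p = 0.0443), where 9.52% of all genes were called lower, and without KOhfd51 as well (adjusted p = 0.00704), where 16.2% were. Under median-of-ratios scaling the difference was -0.23 (adjusted p = 0.321) with all libraries and -0.32 (adjusted p = 0.0391) without KOhfd51, where 2.66% of all genes were called lower. It was also called under TPM scaling (-0.40, adjusted p = 0.0204, 5.04% of all genes called lower) and with weights per library (-0.39, adjusted p = 0.00437, 10.7%). Leaving out 1 library at a time kept the difference between -0.43 and -0.30, and *Psmd8* passed the test without KOhfd51 or without WThfd157 and in none of the other 16 fits. It missed the threshold under 75th percentile scaling (-0.26, adjusted p = 0.175) and under median-of-ratios scaling with the block (-0.23, adjusted p = 0.239). Within the title sets the difference was -0.30 in set 1 and -0.40 in set 2, and it passed in neither (limma, adjusted p = 0.0575 and 0.277). The other lid genes lay between -0.15 for *Psmd11*, which clamps the lid to the core, and 0.13 for *Psmd6*, with -0.04 for *Psmd13*, 0.00 for *Psmd3*, 0.05 for *Psmd7* and 0.07 for *Psmd12*. *Psmd3* was among the steadiest genes in WT, at 44.5 ± 1.85 FPKM (SD, n = 9), and ranged from 34.3 to 59.9 FPKM in *Gpr180*KO.

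The base chaperones stood on different sides of 0. *Psmd9*, at chr5:123228190-123250125, had a lowest value of 12.0, a median of 13.0 and a highest of 14.95 FPKM in WT and 12.7, 14.4 and 21.2 in *Gpr180*KO, where 8 of 9 values were above the WT median. The difference was 0.21 ± 0.09 (log2, SE, 95% interval 0.03 to 0.39, limma, adjusted p = 0.167). It was 0.18 in title set 1 and 0.23 in title set 2, and 0.15 without KOhfd51 (adjusted p = 0.158). *Psmd9* passed the test under median-of-ratios scaling without KOhfd51 (difference 0.25, limma, adjusted p = 0.0262), where 1.77% of all genes were called higher, and under 75th percentile scaling (0.30, adjusted p = 0.0497), where 0.997% were. *Psmd9* shares exon bases with a gene on the opposite strand, Gm26745, as do *Psma4*, *Psma5*, *Psmb7*, *Psmc3*, *Psmd1*, *Psmd3* and *Psmd13* with other genes. Whether the counting used strand is not given in the sources used here, so reads of such pairs may be shared. *Psmd1* also shares exon bases with a gene on its own strand, Gm21972, which counting by strand would not separate. *Psmd5* was below the WT median in 9 of 9 *Gpr180*KO livers, with 14.9, 19.1 and 23.1 FPKM as lowest, median and highest in WT and 14.4, 17.3 and 18.9 in *Gpr180*KO. Its difference was -0.18 ± 0.09 (log2, SE, limma, adjusted p = 0.249). *Psmd10*, known as gankyrin, had 7.78 ± 0.927 FPKM in WT and 7.11 ± 1.39 in *Gpr180*KO (SD, n = 9 each), a difference of -0.14, and -0.21 without KOhfd51 (limma, adjusted p = 0.113). It was called lower with weights per library (adjusted p = 0.0155, 10.7% of all genes called lower) and, as was *Psmb5*, with the title set as a block without KOhfd51 (adjusted p = 0.0365 and 0.036, 16.2%).

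The 2 title sets did not give the same medians. In set 1 all 14 core genes were below 0 (median -0.09, range -0.17 to -0.01), and the regulatory genes had a median of -0.04. The median over all genes was -0.07 there, with 7343 of 10907 below 0, so that the core stood at -0.02 against it. In set 2 the core genes had a median of 0.10 and the regulatory genes 0.08, against -0.17 over all genes, so that the core stood 0.27 above, with 14 of 14 genes above the all-gene median. *Psmd5* (-0.30) and *Psmd10* (-0.30) passed the test in set 1 alone, where 5.29% of all genes were called lower. No proteasome gene passed in set 2 alone (limma, 0 at an unadjusted p under 0.05 as well), where 0.00932% of all genes did. The difference between the sets was then tested by limma's interaction term. It called none of the 34 genes (lowest adjusted p = 0.643) and 0 of all genes, with 2 proteasome genes and 7.69% of all genes at an unadjusted p under 0.05. The median of the interaction over the proteasome genes was 0.16 with all libraries and 0.06 without KOhfd51. Over all genes tested it was -0.09 and -0.06, so the proteasome genes stood above the typical gene in both fits.

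Within WT, too, the title sets differed in level. The median deviation of the proteasome genes lay between 0.05 and 0.10 in the 4 WT libraries of set 1 and between -0.17 and 0.00 in the 5 of set 2. In *Gpr180*KO it lay between -0.04 and 0.06 in set 1 and between -0.18 and 0.02 in set 2 apart from KOhfd51. What the title formats stand for is not given, so these offsets are reported as measured.

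**Figure D4:**
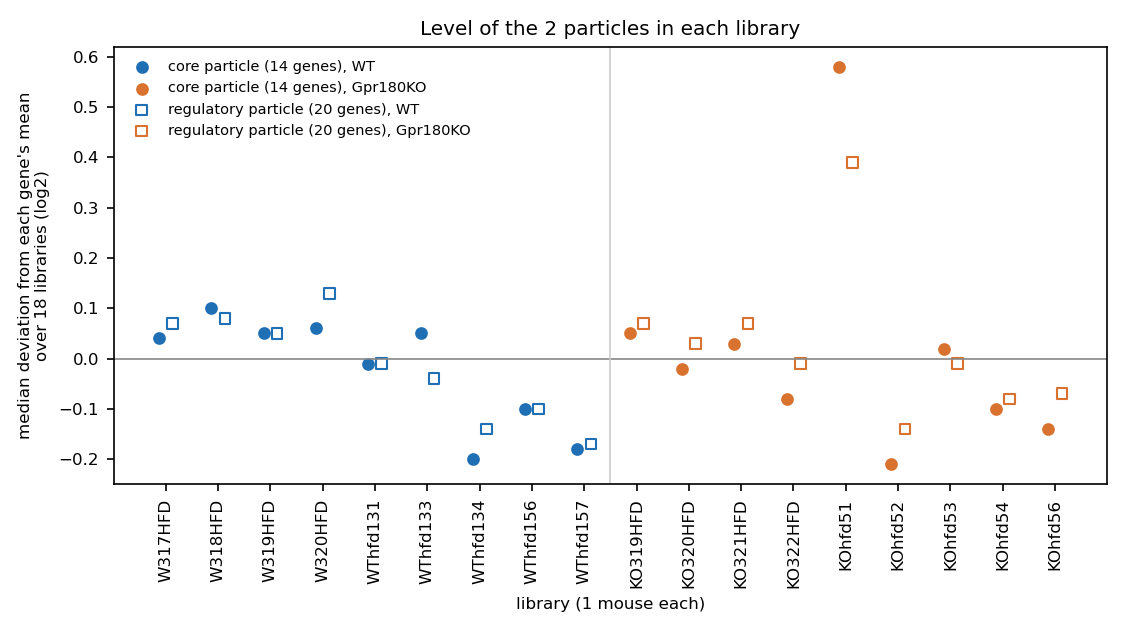
Median deviation of the 14 core genes (filled circles) and the 20 regulatory genes (open squares) from their means over 18 libraries (log2), for each WT (blue) and *Gpr180*KO (orange) liver. Both particles stand at 0.58 and 0.39 in KOhfd51 and between -0.21 and 0.13 in the other 17 libraries.

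The genes around the constitutive proteasome were measured in the same libraries. Interferon-inducible catalytic subunits can replace the standard ones. *Psmb8* had 20.8 ± 3.39 FPKM in WT and 21.4 ± 4.63 in *Gpr180*KO, *Psmb9* 19.4 ± 4.38 and 21.5 ± 7.12, and *Psmb10* 15.5 ± 1.78 and 16.6 ± 5.69 (SD, n = 9 each). None of them passed the test (limma, adjusted p = 0.885, 0.713 and 0.811). In each library the FPKM of *Psmb8* was 0.185 to 0.252 times that of *Psmb5* in WT and 0.206 to 0.308 times in *Gpr180*KO. The ratio of *Psmb9* to *Psmb6* was 0.113 to 0.256 in WT and 0.118 to 0.361 in *Gpr180*KO, and that of *Psmb10* to *Psmb7* 0.0945 to 0.127 and 0.0868 to 0.145. Each pair of ranges overlapped. KOhfd51 stood within the other *Gpr180*KO libraries for the ratios to *Psmb5* and *Psmb6*, at 0.212 and 0.192, and highest of all for that to *Psmb7*, at 0.145. Of the 8 inducible subunits and activators 0 passed the test (median difference 0.00), as did 0 of 5 assembly chaperones of the core (median 0.08), 0 of 9 associated factors (median -0.09) and 0 of 14 genes of ubiquitin supply and delivery (median -0.08). Of all genes tested 4.73% passed, and their median was -0.13. At an unadjusted p under 0.05 in limma these counts were 1, 0, 1 and 1, against 19.6% of all genes lower and 2.54% higher. *Zfand2a*, which encodes a factor that binds the proteasome under arsenite stress, had 5.96 ± 1.46 FPKM in WT and 4.31 ± 0.748 in *Gpr180*KO (SD, n = 9 each), a difference of -0.44 (limma, adjusted p = 0.0841). It was called lower with the title set as a block (adjusted p = 0.0178, 9.52% of all genes called lower) and with weights per library (adjusted p = 0.0194, 10.7%), where *Psmg1*, a chaperone of the core, was called lower as well (-0.21, adjusted p = 0.0416). *Pomp*, the chaperone that matures the core particle, had 125.3 ± 19.6 FPKM in WT and 139.3 ± 32.8 in *Gpr180*KO (SD, n = 9 each), and *Adrm1*, a ubiquitin receptor of the base, 54.4 ± 3.59 and 58.3 ± 11.7. The tissue-specific paralogs *Psma8* and *Psmb11* were under 1 FPKM together in every library and were not tested.

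Genes of the transcriptional control of the proteasome lay mostly below 0, as did most genes tested. *Nfe2l1* encodes the factor that induces subunit genes when proteasome activity falls short, *Nfe2l2* a related factor of the antioxidant response, small Maf proteins are the partners of both, and NF-Y binds CCAAT boxes. Of 14 genes listed 13 were tested, 12 were below 0 (median -0.21), against 76.9% of all genes, and 2 passed the test as lower, *Mafk* and *Nfyb*, against 4.28% of all genes. Without KOhfd51, 9 of the 13 were below 0 (median -0.17), against 8137 of 10867 genes tested. *Mafk* and *Nfyb* still passed (limma, adjusted p = 0.0462 and 0.0323), where 6.46% of all genes were called lower. *Mafk* had 7.45 ± 1.59 FPKM in WT and 5.03 ± 1.18 in *Gpr180*KO (SD, n = 9 each, log2 difference -0.56, limma, adjusted p = 0.0394). *Nfyb* had 13.7 ± 1.37 and 10.9 ± 1.64 FPKM (log2 difference -0.34, adjusted p = 0.0407). Both calls depended on which libraries were kept. *Mafk* kept its call in 7 of the 18 fits that leave out 1 library and lost it without W317HFD, W318HFD, W319HFD, W320HFD, WThfd133, WThfd156, KO320HFD, KOhfd52, KOhfd53, KOhfd54 or KOhfd56 (highest adjusted p = 0.0862). *Nfyb* kept its call in 9 and lost it without W317HFD, W318HFD, W319HFD, W320HFD, WThfd133, KOhfd52, KOhfd53, KOhfd54 or KOhfd56 (highest adjusted p = 0.0895). With the title set as a block both passed (limma, adjusted p = 0.00718 and 0.0116), where 9.52% of all genes were called lower. Both also passed with weights per library (limma, adjusted p = 0.0114 and 0.0161, 10.7% of all genes). With the block added to median-of-ratios scaling *Mafk* passed and *Nfyb* did not (limma, adjusted p = 0.0264 and 0.0666), where 390 of 10835 genes were called lower. Under median-of-ratios scaling alone neither passed (adjusted p = 0.084 and 0.119). The median of the list was then -0.09, with 9 of 13 genes below 0, against 51.1% of all genes. *Nfe2l1* had 41.9 ± 4.32 FPKM in WT and 36.2 ± 6.13 in *Gpr180*KO, a difference of -0.22 (adjusted p = 0.187), and *Nfe2l2* 53.8 ± 9.73 and 40.7 ± 7.90, a difference of -0.41 (adjusted p = 0.0676). With the title set as a block both were called lower (limma, adjusted p = 0.0309 and 0.0154), as were 9.52% of all genes. With weights per library *Nfe2l2* was called lower and *Nfe2l1* was not (limma, adjusted p = 0.017 and 0.248, 10.7% of all genes called lower). Under median-of-ratios scaling neither passed (-0.10 and -0.28, adjusted p = 0.542 and 0.142), nor with the block added to it (adjusted p = 0.317 and 0.0586).

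These factors are known to act on proteasome genes, and the promoters were therefore read for the core of the antioxidant response element, TGACNNNGC, and for CCAAT, on both strands. RefSeq windows (GRCm38.p6, 250 bases before to 50 after each start) were matched for 28 of the 34 genes and hold 30 windows. TGACNNNGC was in 5 of the 30 windows, 1 in each of 5 genes, which is 16.7% against 12.4% of all 32851 windows. CCAAT was in 11 of the 30, 36.7%, against 37.4% of all windows. The 5 stretches with TGACNNNGC are shown because this is the element that Nfe2l1 and Nfe2l2 bind. They run 5′ to 3′ along the strand of the gene, up to 10 bases to either side within the 250 bases before the start, with the match in capitals. In *Psmc6* and *Psmd12* the match is on the opposite strand, so that its reverse complement is shown.
Psmb5: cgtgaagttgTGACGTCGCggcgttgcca
Psmb6: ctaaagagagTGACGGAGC
Psmc6: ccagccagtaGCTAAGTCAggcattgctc
Psmd9: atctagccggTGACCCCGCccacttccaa
Psmd12: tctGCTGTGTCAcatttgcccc

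These stretches lie at chr14:54618024-54618052 on the minus strand for *Psmb5*, at chr11:70525338-70525356 on the plus strand for *Psmb6*, at chr14:45329587-45329615 on the plus strand for *Psmc6*, at chr5:123228149-123228177 on the plus strand for *Psmd9* and at chr11:107479278-107479299 on the plus strand for *Psmd12*. The match began 47 bases before the start in *Psmb5*, 9 in *Psmb6*, 31 in *Psmd9*, 227 in *Psmc6* and 247 in *Psmd12*. The 5 genes did not share a direction: their differences between genotypes were -0.08 for *Psmb5*, -0.06 for *Psmb6*, -0.13 for *Psmc6*, 0.21 for *Psmd9* and 0.07 for *Psmd12*, and none passed the test. *Psmd8*, with the lowest p of the 34 genes, has a window with neither motif.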

How the data were processed

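Poly(A) libraries of liver RNA were sequenced as single reads by the authors and aligned to mm10 (GRCm38) with the TopHat Alignment application. The authors deposited a table of FPKM values with confidence bounds for each mouse. These FPKM are the output of that step, the quantifier and annotation version are not given in the sources used here, and reads are stated by the authors only as an approximate range over all samples, not for each library. Each table has 23847 entries, and values of entries that share a symbol were summed. The status column marks 190 values as not estimated, and 24 genes with such a value were excluded.

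Genes with a mean of at least 1 FPKM (10835) were compared on log2(FPKM + 0.1) with limma 3.58.1 in R 4.3.3 (lmFit, eBayes with trend), with Benjamini-Hochberg adjustment over all of them. On this scale the fold changes of weakly expressed genes come out too small. *Gpr180* was also compared by an exact permutation test. The fit was tested on simulated data with independent noise for each gene and library. In them 200 of 10835 genes were changed by 1 on the log2 scale between genotypes. The fit recovered 91% of these, and 3.19% of its calls were unchanged genes. The simulation held no library like KOhfd51, no offset between title sets and no correlation between genes. Its share of false calls may therefore not hold for the real data. Recovery of differences as small as those of the proteasome genes was not tested. Alternatives were pseudocounts of 1 and 0.01, no FPKM minimum or one of 5, scaling by TPM, by the 75th percentile or by median of ratios, the title set as a block, each set alone, eBayes without trend, weights per library and each library left out. Fits without KOhfd51 that also changed the scaling or the block, and further interaction fits, were added after seeing the data. Transcript lengths are those of the transcript with the longest coding sequence in GENCODE M21, known for 94.4% of genes tested and 34 of 34 proteasome genes. Promoters and their coordinates are from RefSeq (GRCm38.p6).

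The proteasome genes and the lists around them were chosen with earlier results of these data known. The genes named with their ranges were the one with the lowest unadjusted p in each of 6 classes and the 3 catalytic subunits, and from the lists those past the threshold and 7 fixed genes. *Psmd5*, *Psmd10*, *Psmd14*, *Zfand2a*, *Psmg1* and the other genes described by values were named after their values were seen.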

Additional observations from a re-analysis of the deposited data

Results flagged for a closer look

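In each genotype of 9 livers the highest and the lowest log2(FPKM + 0.1) of every proteasome gene was compared with its nearest neighbour, and 14 of 68 groups had a value whose gap exceeded 0.493 of the whole range (Dixon's 95% limit for 9 samples). Chance flags about 1 in 20 groups, and values of one library are not independent between genes. Of the 14, 12 were values of the *Gpr180*KO library KOhfd51. Among the core genes KOhfd51 was the highest *Gpr180*KO library for *Psma2* (123.9 FPKM), *Psma6* (166.5), *Psma7* (173.3), *Psmb1* (188.9), *Psmb3* (207.9), *Psmb6* (168.2) and *Psmb7* (215.6). Among the regulatory genes it was the highest for *Psmc1* (97.5 FPKM), *Psmc3* (90.03), *Psmd4* (132.5) and *Psmd8* (108.1), and the lowest for *Psmd11* (44.0). The other values were the 109.0 FPKM of *Psma1* in WThfd133, far above the other WT livers, and the 39.3 FPKM of *Psmd12* in WThfd134, far below them. On FPKM without the logarithm 19 groups exceeded the limit, these 14 and the KOhfd51 values of *Psmb2* (133.3 FPKM), *Psmb4* (204.8), *Psmb5* (150.5), *Psmd9* (21.2) and *Psmd10* (10.4), each the highest of *Gpr180*KO.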

How the results depend on the processing

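Over 33 alternatives the median difference ran from -0.07 (title set 1 alone) to 0.15 (median-of-ratios scaling) for all proteasome genes, from -0.09 to 0.14 for the core and from -0.04 to 0.15 for the regulatory genes, and the core minus the regulatory median from -0.05 to 0.02. The standard deviation of these quantities between libraries of 1 genotype was 0.15, 0.18, 0.13 and 0.06, and 0.09, 0.10, 0.09 and 0.04 without KOhfd51, so that some of these moves reach or exceed the spread of the other libraries. The number of proteasome genes called lower was 0 as deposited, against 4.28% of all genes. It was 1 under TPM scaling (5.04% of all genes called lower), with the title set as a block (9.52%) and under median-of-ratios scaling without KOhfd51 (2.66%). It was 2 in title set 1 alone (5.29%) and with weights per library (10.7%), and 3 with the block without KOhfd51 (16.2%). With each library left out it was 0 to 1 (1 without KOhfd51, where 6.46% were called lower, or without WThfd157). The number called higher, 0 against 0.452% of all genes, was 1 under 75th percentile scaling (0.997%) and under median-of-ratios scaling without KOhfd51 (1.77%). Of the genes listed around the proteasome, 2 were called lower. This number was 0 under 75th percentile and median-of-ratios scaling, median-of-ratios scaling without KOhfd51, no FPKM minimum and in title set 2 alone. It was 1 under TPM scaling (5.04% of all genes called lower) and under median-of-ratios scaling with the block (390 of 10835 genes). It was 5 with the block (9.52%), with the block without KOhfd51 (16.2%) and with weights per library (10.7%), and 0 to 4 with each library left out. The number of listed genes called higher, 0, was 2 in title set 1 alone, where 116 of 10907 genes were called higher.

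Differences of genes that did not pass the test changed sign as follows. Under 75th percentile scaling the log2 differences were 0.05 for *Psma1*, 0.01 for *Psma4*, 0.09 for *Psmb1*, 0.01 for *Psmb5*, 0.03 for *Psmb6*, 0.09 for *Psmc4*, 0.02 for *Psmd1*, 0.09 for *Psmd3* and 0.05 for *Psmd13*. Under TPM scaling they were 0.00 for *Psma2* and *Psmb8*, -0.03 for *Psmb7*, -0.01 for *Psmc3* and -0.02 for *Psmd14*. Under median-of-ratios scaling, with or without the title set as a block, they were 0.08 for *Psma1*, 0.04 for *Psma4*, 0.12 for *Psmb1*, 0.02 for *Psmb2*, 0.04 for *Psmb5*, 0.06 for *Psmb6*, 0.12 for *Psmc4*, 0.05 for *Psmd1*, 0.12 for *Psmd3* and 0.08 for *Psmd13*. The same scaling without KOhfd51 gave 0.03 for *Psma1*, 0.02 for *Psmb1*, 0.03 for *Psmc4*, 0.00 for *Psmc6*, 0.07 for *Psmd1*, 0.05 for *Psmd3* and 0.01 for *Psmd11*. Title set 1 alone gave -0.04 for *Psma2*, -0.09 for *Psma3*, -0.05 for *Psma5*, -0.10 for *Psma6*, -0.01 for *Psma7*, -0.09 for *Psmb3*, -0.06 for *Psmb4*, -0.11 for *Psmb7*, -0.09 for *Psmc3*, -0.04 for *Psmd2*, 0.08 for *Psmd3*, -0.03 for *Psmd12*, -0.08 for *Psmd14*, -0.07 for *Psmb8*, -0.05 for *Psmb10* and -0.02 for *Pomp*. Title set 2 alone gave 0.01 for *Psma1*, 0.04 for *Psmb1*, 0.05 for *Psmc4*, 0.00 for *Psmd13* and -0.01 for *Adrm1*. With the block and without KOhfd51 they were -0.03 for *Psma2*, -0.02 for *Psmb3*, -0.08 for *Psmb7*, -0.03 for *Psmc3*, -0.01 for *Psmd14*, -0.06 for *Psmb8* and -0.07 for *Psmb10*. With weights per library they were -0.03 for *Psma2*, -0.04 for *Psma3*, -0.04 for *Psma6*, -0.02 for *Psmb3*, -0.09 for *Psmb7*, -0.07 for *Psmc3*, -0.01 for *Psmd12*, -0.02 for *Psmd14*, -0.04 for *Psmb8* and -0.07 for *Psmb10*. With each library left out the ranges that crossed 0 were -0.02 to 0.06 for *Psma2*, -0.08 to 0.02 for *Psmb1*, 0.00 to 0.14 for *Psmb3*, -0.07 to 0.03 for *Psmb7*, -0.03 to 0.04 for *Psmc3*, -0.08 to 0.03 for *Psmc4*, -0.06 to 0.04 for *Psmd3*, -0.11 to 0.01 for *Psmd13*, -0.02 to 0.06 for *Psmd14*, -0.04 to 0.08 for *Psmb8* and -0.06 to 0.10 for *Psmb10*. Causes of these changes were not tested. The depth of each library is not given in the sources used here, and the number of mice per genotype limits the precision. Replicate numbers were given in accession order. No paired analysis was possible because the labels pair no mice of the 2 genotypes.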
